A study of Mus musculus with 10 samples.

Results

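The Hoxb cluster genes are the 9 homeobox genes Hoxb1 to Hoxb9, which lie side by side on mouse chromosome 11 between positions 96271330 and 96368254 (GRCm38.p6), a stretch of 96.925 kb. Their members were taken from the array by RefSeq accession: 10 of the 55681 probes named these 9 genes, of 20972 genes named in all, and each gene had 1 probe except Hoxb3, which had 2. RNA was measured on 10 one-colour Agilent arrays, 1 array per sample, from LSK cells, the bone marrow gate low in lineage markers and positive for Sca-1 and c-Kit that holds blood stem and early progenitor cells. The cells were sorted as CD45.2-positive from C57BL/6 marrow after transplantation. The Ezh2-deleted arrays (Cre-Ert;Ezh2fl/fl, here KO) came from mice 3 months after transplantation with no disease (1 array) and from mice at 9 to 12 months: MDS, myelodysplastic syndrome (2 arrays), MDS/MPN, an overlap of myelodysplastic syndrome with myeloproliferative neoplasm (3 arrays, 1 labelled TC and 1 CMMoL in addition), disease not determined (1 array), and 1 array labelled as a mix of MDS, MDS/MPN and MDS/MPN_TC. The Cre-Ert arrays without the floxed allele (here WT) were 1 array at 3 months and 1 array at 9 to 12 months, both with no disease. Cre-Ert and transplantation were common to all groups, and tamoxifen was given to delete Ezh2; the promoter behind Cre-Ert is not named in the labels, nor whether an array held pooled mice, although the design text gives n = 3 for deleted mice at 3 months. Nothing says which arrays share a mouse, a transplant or a sort, so the p-values below measure only the spread between these arrays.

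Hox genes encode transcription factors with a homeodomain, and in each cluster their order along the chromosome follows their order of use along the body axis, Hoxb1 most anterior and Hoxb9 most posterior of the genes treated here. Polycomb repressive complex 2, whose catalytic subunit is Ezh2, places the H3K27 methyl mark that keeps Hox clusters silent outside their domains, while trithorax-group methyltransferases and retinoic acid receptors activate them. In mouse blood Hoxb4 expands stem cells when overexpressed, Hoxb5 marks long-term stem cells, and Hoxb8 is an oncogene that blocks myeloid maturation.

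The 9 genes behaved in several ways, and the RefSeq promoter table (GRCm38.p6) matched 3 of them, 1 gene of each of 3 kinds. Hoxb1 was well above background on no array. Hoxb4 was at nearly the same level on all arrays but MDS/MPN replicate 2, where it was higher. Hoxb8 was well above background on 1 WT array alone. The 250 bases before each start site are printed 5′ to 3′ on the plus strand (Hoxb1 at chr11:96365508-96365757, Hoxb4 at chr11:96318017-96318266, Hoxb8 at chr11:96281655-96281904), and capitals mark any match to 5 motifs on either strand. The Hoxb8 window lies inside the annotated span of that gene (96279401 to 96285325), before the start site the table uses, and not upstream of the whole gene. The end of the Hoxb1 window, at 96365757, also reaches into the annotated span of its gene, which starts at 96365746. The motifs were the CCAAT box by its name, the TATA box spelled TATAAA, the GC box spelled GGGCGG, the site shared by Hox and Pbx proteins spelled TGATNNAT, and the E-box spelled CACGTG.
Hoxb1: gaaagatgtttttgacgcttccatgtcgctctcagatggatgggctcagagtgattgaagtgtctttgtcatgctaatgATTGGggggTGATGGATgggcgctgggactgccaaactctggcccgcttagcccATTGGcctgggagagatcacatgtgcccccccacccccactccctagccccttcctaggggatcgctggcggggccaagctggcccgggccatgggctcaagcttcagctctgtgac
Hoxb4: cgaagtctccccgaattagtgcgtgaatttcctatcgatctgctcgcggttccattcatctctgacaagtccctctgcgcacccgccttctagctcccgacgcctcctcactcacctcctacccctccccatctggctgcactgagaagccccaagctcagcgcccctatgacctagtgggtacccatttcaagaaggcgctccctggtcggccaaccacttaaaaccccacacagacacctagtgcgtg
Hoxb8: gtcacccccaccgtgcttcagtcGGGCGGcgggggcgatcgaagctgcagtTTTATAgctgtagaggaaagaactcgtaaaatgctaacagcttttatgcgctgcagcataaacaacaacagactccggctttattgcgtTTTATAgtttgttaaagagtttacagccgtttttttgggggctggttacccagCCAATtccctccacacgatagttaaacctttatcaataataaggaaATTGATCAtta
The Hoxb1 window held 2 matches to the CCAAT box and 1 to the Hox-Pbx site. The Hoxb8 window held 1 match to the CCAAT box, 2 to the TATA box, 1 to the GC box and 1 to the Hox-Pbx site, and the Hoxb4 window held none of the 5 motifs. No 2 matches overlapped in these windows. Over the same 250 bases of 32851 promoters, the CCAAT box was found in 33.8%, the TATA box in 12.4%, the GC box in 32.7%, the Hox-Pbx site in 7.68% and the E-box in 6.02%. CpG dinucleotides numbered 7 in the Hoxb1 window, 14 in that of Hoxb4 and 12 in that of Hoxb8, against a median of 6 over all promoters in the table. These matches are letters in a window, and no binding or methylation was measured here.

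Levels are given as log2 of the processed probe intensity over the 75th percentile of its array, and a probe counts as measured where the scanner software called it well above background. Such levels can be compared between arrays for 1 probe, not between probes. The 75th percentile was an intensity of 78.7 to 301.7, and 32.5% to 47.5% of probes were well above background. The lowest measured level of an array was between -3.69 on MDS/MPN replicate 2 and -1.51 on MDS/MPN replicate 1, so a value not well above background is only an upper bound that differs by array. All 5 LSK gate genes (Kit, Ly6a, Ptprc, Cd34, Flt3) were well above background on every array. The single probe of Ezh2 read 2.13 to 3.35 on the 8 KO arrays and 2.13 (3 months) and 2.63 (9 to 12 months) on the WT arrays; whether it lies in the deleted part is not known from the files, so it does not check the genotype. The arrays labelled 3 months in both genotypes were on 1 slide (slide 1) and the other 8 on a second (slide 2), so time and slide cannot be told apart. The value table that was deposited beside the scanner files names 4 arrays with the other time: WT at 3 months is exchanged with WT at 9 to 12 months, and KO at 3 months with the mixed KO array. Times here are those of the scanner files, and results that rest on them are given under both labellings; genotype labels were the same in both.

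Hoxb2, which patterns the hindbrain, was lower on all 8 KO arrays than on both WT arrays. On the KO arrays it read -1.13 at 3 months, -1.56 on the mixed array, -2.47 and -1.20 in MDS, -1.23, -2.14 and -2.56 in MDS/MPN and -2.01 where disease was not determined. On the WT arrays it read 1.03 at 3 months and 0.23 at 9 to 12 months. The groups did not overlap, with a gap between -1.13, the highest KO value, and 0.23, the lower WT value; 2.74% of the 22371 features tested had all KO arrays below both WT arrays. It was well above background on 6 of 8 KO arrays (not on MDS replicate 1 or MDS/MPN replicate 3) and on both WT arrays, so this gene was measured in both genotypes. Within slide 1 the KO array was 4.47-fold lower than the WT array. Within slide 2 the 7 KO arrays averaged -1.88 ± 0.56 (SD, n = 7) against 0.23 on the WT array, a difference of -2.11.

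With all arrays and the slide as a block, the limma difference for Hoxb2 was -2.13 ± 0.44 (SE, 8 KO and 2 WT arrays), with adjusted p = 0.370 over all features, so it did not pass the threshold of 0.05; its rank by p was 33 among the 22371 features. In the 6 KO arrays at 9 to 12 months other than the mixed one, set against the 1 WT array on slide 2, the difference was -2.17 ± 0.60 (SE, 6 and 1 arrays, limma adjusted p = 0.308). All 6 lay below that WT array, as they did for 13.9% of the 19597 features in that fit. With normexp background correction both differences were smaller, -1.12 and -1.10.

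**Figure D1:**
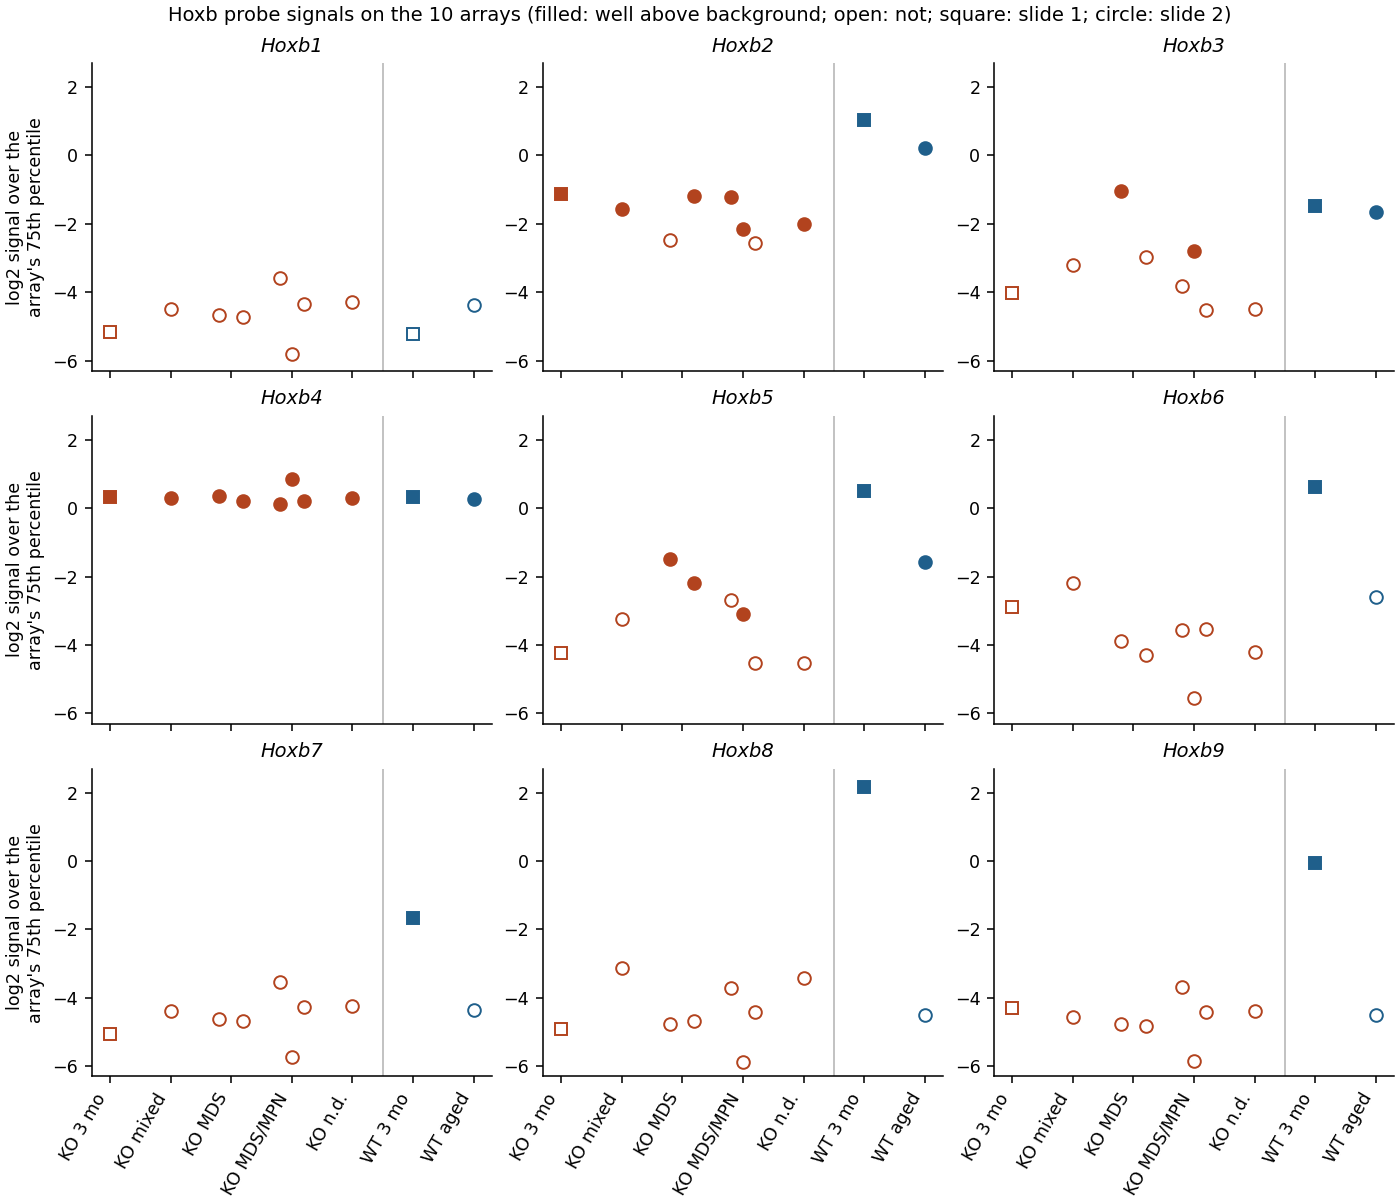
Signal of each Hoxb gene on each array (vertical axis, log2 over the 75th percentile of the array), KO arrays left of the grey line and WT arrays right of it, with filled points well above background and open points not, squares for slide 1 and circles for slide 2. Hoxb2 lay between -2.56 and -1.13 on KO arrays and at 0.23 and 1.03 on WT arrays, Hoxb4 was level apart from 1 MDS/MPN array, and Hoxb6 to Hoxb9 have a filled point on the WT array of slide 1 alone.

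Hoxb4, the stem cell expansion factor, was the member well above background on all 10 arrays, and both WT values lay inside the spread of the KO arrays. On the KO arrays it read 0.33 at 3 months, 0.30 on the mixed array, 0.36 and 0.20 in MDS, 0.13, 0.85 and 0.21 in MDS/MPN and 0.31 where disease was not determined. The WT arrays read 0.32 at 3 months and 0.27 at 9 to 12 months. The KO arrays averaged 0.34 ± 0.22 (SD, n = 8) and the WT arrays 0.30 ± 0.03 (SD, n = 2). The limma difference was 0.04 ± 0.29 (SE, 8 KO and 2 WT arrays, adjusted p = 0.9995). On slide 1 KO exceeded WT by 0.01, and the mixed KO array exceeded the WT array of slide 2 by 0.02. The span annotated for Hoxb3 (96307101 to 96347930) contains that of Hoxb4 (96318267 to 96321638), and the files do not say which transcripts each probe detects.

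Hoxb3 and Hoxb5, 2 further genes of the anterior and middle part of the cluster, were well above background on both WT arrays and on a minority of the KO arrays. Hoxb5 read -1.48 and -2.18 in MDS and -3.09 in MDS/MPN replicate 2, the 3 KO arrays where it was measured. The other 5 KO arrays were not well above background and read -4.53 to -2.68. The WT arrays read 0.50 at 3 months and -1.56 at 9 to 12 months. All KO arrays were below the WT array of slide 1, but MDS replicate 1 lay just above that of slide 2, so the genotypes overlapped. On slide 1 Hoxb5 was at least 12.7-fold lower in KO, where the KO value is the lowest measured signal of its array. On slide 2 the 7 KO arrays averaged -3.10 ± 1.13 (SD, n = 7, 3 well above background) against -1.56 in WT.

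The limma difference for Hoxb5 over all arrays was -2.70 ± 0.90 (SE, 8 KO and 2 WT arrays, adjusted p = 0.663), and it was -1.71 when values not well above background were raised to the lowest measured signal of their array where they lay below it. It was -4.75 without the WT array at 9 to 12 months and -1.54 without the WT array at 3 months. With the slide as a block, the first is the difference of the single pair of arrays on slide 1. The second is the difference on slide 2 alone. Hoxb3 read -1.03 in MDS replicate 1 and -2.78 in MDS/MPN replicate 2, the 2 KO arrays where it was measured, and was not well above background on the other 6 KO arrays, at -4.51 to -2.96. On the WT arrays it read -1.47 at 3 months and -1.66 at 9 to 12 months, so the highest KO array exceeded both. The limma difference was -1.95 ± 0.82 (SE, 8 KO and 2 WT arrays, adjusted p = 0.862), -0.90 with dim values raised and -1.06 with the median of its probes. With normexp the differences were -0.91 for Hoxb5 and -0.46 for Hoxb3. The second Hoxb3 probe was well above background on the WT array at 3 months alone, at -2.65.

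Hoxb6, Hoxb7, Hoxb8 and Hoxb9, the posterior genes of the cluster treated here, were measured well above background on a single array, that of WT at 3 months. Hoxb8 read -4.91 on the 3-month KO array and between -5.89 and -3.13 on the other 7, none of them measured, against 2.17 on the WT array of slide 1 and -4.52, not measured, on that of slide 2. Hoxb9 read -5.86 to -3.69 on KO arrays, against -0.05 on the WT array of slide 1 and -4.50 on that of slide 2. Hoxb6, whose overexpression expands mouse myeloid progenitors, read between -5.56 and -2.19 on KO arrays, against 0.63 and -2.60 on the WT arrays of slides 1 and 2. Hoxb7 read -5.74 to -3.53 on KO arrays, against -1.65 and -4.35 on the WT arrays. For Hoxb6, Hoxb8 and Hoxb9 the WT array of slide 1 exceeded the upper bound on each of the other 9, while for Hoxb7 its -1.65 lay below the bound of -1.51 on MDS/MPN replicate 1.

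On slide 1 the KO array was at least 40.3-fold lower than the WT array for Hoxb8, at least 11.4-fold lower for Hoxb6, at least 8.64-fold lower for Hoxb9 and at least 2.85-fold lower for Hoxb7. Hoxb3 was at least 3.22-fold lower there. Of the 22436 features measured on either array of that slide, 9.18% were at least 2-fold lower in KO and 11.1% at least 2-fold higher, with dim values raised. A pair of single arrays has no replicates, so these folds compare the 2 arrays and not the genotypes. The WT array of slide 1 was not the array with most features of its own: 587 of 48997 features (1.20%) were well above background on it alone, against 237 to 1486 on each of the other 9 arrays. Those 587 included 4 Hoxb genes, and the features found on any other single array included none.

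**Figure D2:**
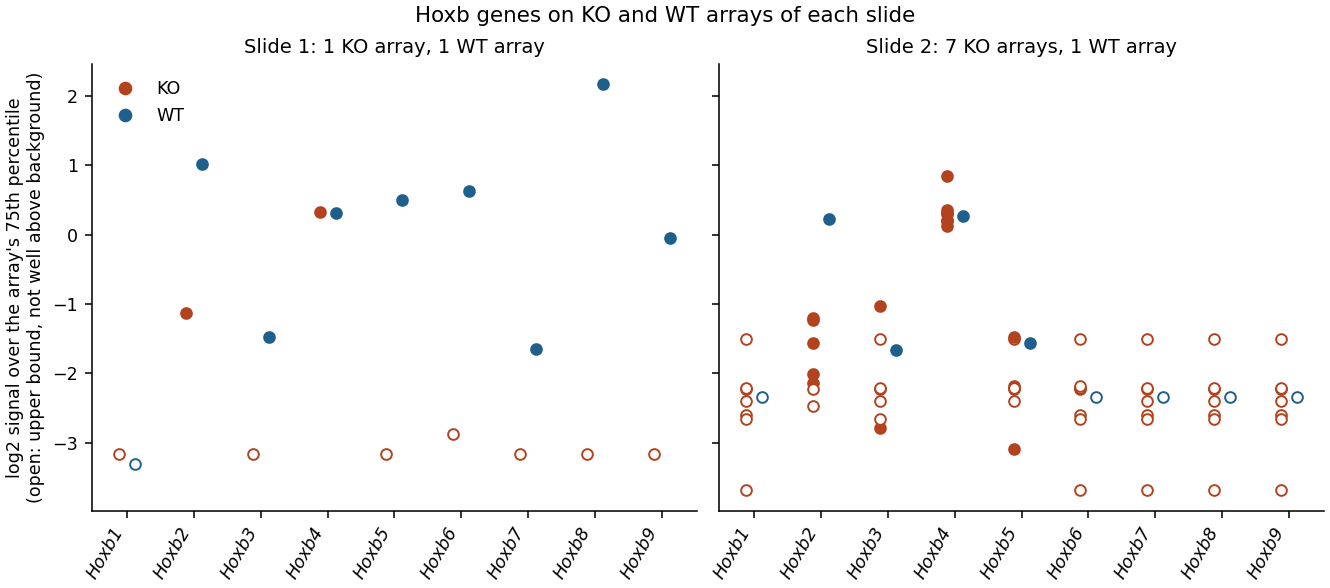
Signals on slide 1 (left) and slide 2 (right) by gene, KO points left of WT points, with open points drawn at the upper bound of an unmeasured value (vertical axis, log2 over the 75th percentile of the array). On slide 1 the WT array has 8 filled points and the KO array 2; on slide 2 the WT array has 4 and the KO arrays 1 to 4.

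Hoxb1, which specifies a hindbrain segment, was below that call on all 10 arrays (-5.79 to -3.59 in KO, -5.22 and -4.38 in WT), and those values show how far an unmeasured probe moves between arrays. By array, 1 to 4 of the 9 genes were well above background in KO (4 on MDS/MPN replicate 2, 3 on each MDS array, 2 on the 3-month array, the mixed array, MDS/MPN replicate 1 and the undetermined array, 1 on MDS/MPN replicate 3), and 8 at 3 months and 4 at 9 to 12 months in WT. MDS/MPN replicate 2 was also the array with most probes well above background and the lowest bound.

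Of the 9 Hoxb genes, 8 passed the filter of the fit over all arrays, which asks for a signal well above background on 50% of the arrays of 1 genotype, and 0 of 8 were called by limma at adjusted p under 0.05, where 0.00894% of features were called lower and 0.00447% higher. In that fit limma called 3 of 22371 features, with 425 higher and 816 lower at an unadjusted p under 0.05. Hoxb3 and Hoxb5 passed through the WT arrays, and Hoxb6 to Hoxb9 through the WT array of slide 1 alone, so their direction was set by the filter. The differences were -2.09 ± 0.77 for Hoxb6, -1.33 ± 0.69 for Hoxb7, -2.43 ± 1.27 for Hoxb8 and -1.63 ± 0.78 for Hoxb9 (SE, 8 KO and 2 WT arrays, limma adjusted p from 0.741 to 0.951). With dim values raised they were -1.34, -0.63, -2.02 and -1.21 in the same order, and -0.61, -0.27, -1.14 and -0.55 with normexp. Without the KO array at 3 months Hoxb8 was at 0.23 and Hoxb9 at -0.14, and without the WT array at 9 to 12 months they were at -7.08 and -4.26. With the slide as a block, 0.23 and -0.14 are the differences on slide 2 alone. Likewise -7.08 and -4.26 are those of the single pair of arrays on slide 1. Without the WT array at 3 months Hoxb6 to Hoxb9 did not pass the filter. In the fit at 9 to 12 months 4 Hoxb genes were tested and 0 called, where 0.582% of features were called lower and 0.0051% higher. Hoxb3 was at -1.61 ± 1.14, Hoxb4 at 0.07 ± 0.42 and Hoxb5 at -1.52 ± 1.08 (SE, 6 KO and 1 WT arrays, limma adjusted p = 0.9999 for each). With dim values raised Hoxb3 was at -0.41 and Hoxb5 at -0.56, and Hoxb3 was at -0.58 with the median of its probes. In the fit at 9 to 12 months Hoxb3 passed the filter through the WT array alone, so its direction there was favoured by the filter.

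Under the time labels of the value table the WT array of slide 1 becomes the array at 9 to 12 months, and the same 6 KO arrays, all on slide 2, are set against it. There 8 Hoxb genes were tested and 3 were called lower by limma, where 0.431% of features were called lower. These were Hoxb8 at -6.65 ± 0.80 (adjusted p = 0.0165), Hoxb6 at -4.80 ± 0.72 (adjusted p = 0.0306) and Hoxb9 at -4.60 ± 0.69 (adjusted p = 0.0306), with SE over 6 KO arrays and 1 WT array. These 3 genes passed the filter through that WT array alone and were measured on 0 of the 6 KO arrays, so their direction was set by the filter and the differences are taken to unmeasured probes. Against the upper bounds the KO arrays were at least 25.2-fold lower for Hoxb8, at least 8.66-fold for Hoxb6 and at least 5.40-fold for Hoxb9. Hoxb2 was at -2.96 ± 0.61 (adjusted p = 0.0833) and Hoxb4 at 0.03 ± 0.43 (adjusted p = 0.987). In this labelling genotype and slide cannot be told apart, and the call rests on 1 WT array. The times are exchanged only within a genotype, so all KO arrays against both WT arrays is the same comparison under either labelling. In it every KO array was below both WT arrays for Hoxb2, and both WT values lay inside the KO range for Hoxb4.

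**Figure D3:**
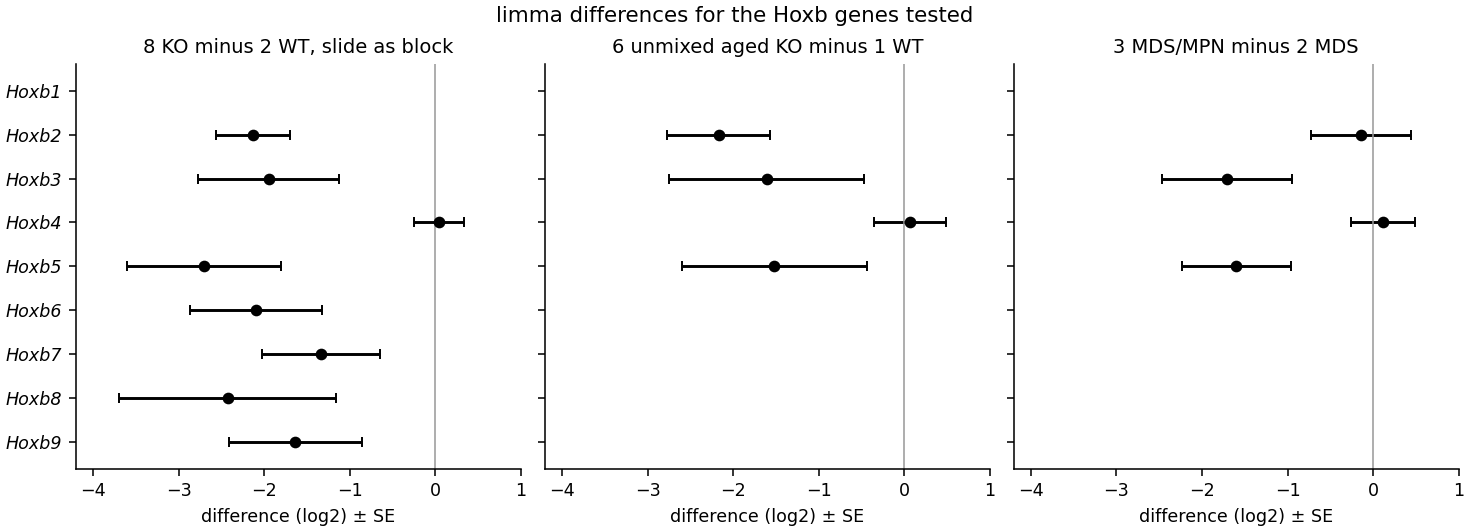
limma differences with SE (horizontal axis, log2) for the Hoxb genes tested, in 8 KO minus 2 WT arrays, 6 unmixed KO minus 1 WT array at 9 to 12 months, and 3 MDS/MPN minus 2 MDS arrays; genes with no point did not pass the filter of that fit. Hoxb4 lies at 0.04, 0.07 and 0.12, and Hoxb2 at -2.13, -2.17 and -0.14.

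Between disease classes, Hoxb5 read -2.68, -3.09 and -4.53 in MDS/MPN, with only the -3.09 of replicate 2 well above background, and -1.48 and -2.18 in MDS. As read these did not overlap, as for 12.0% of 20727 features lower in MDS/MPN. The bound of -1.51 on MDS/MPN replicate 1 lies above the lower MDS value, so the classes were not separated by measured signals. The difference was -1.60 ± 0.64 (SE, 3 and 2 arrays, limma adjusted p = 0.991), and -0.45 with dim values raised. Hoxb3 read -3.82, -2.78 and -4.51 in MDS/MPN and -1.03 and -2.96 in MDS, which overlapped, and differed by -1.71 ± 0.76 (limma adjusted p = 0.991), by -0.33 with dim values raised and by -0.78 with the median of its probes. Hoxb5 was well above background on 1 of 3 MDS/MPN arrays and 2 of 2 MDS arrays, and Hoxb3 on 1 of 3 and 1 of 2. Both genes passed the filter of this fit through the MDS arrays alone, so their direction was favoured by the filter. Hoxb2 and Hoxb4 differed by -0.14 ± 0.59 and 0.12 ± 0.38, with overlapping classes for both genes. Of the 4 Hoxb genes tested 0 were called, and limma called 0.0% of features in either direction, with 310 higher and 612 lower at an unadjusted p under 0.05. Beside these values, the genes of a list of long-term stem cell markers had a median difference of -1.15 between MDS/MPN and MDS over 16 tested genes, 11 of them negative, against -0.02 over all features. Among them Hlf, a transcription factor of stem cells, was at -2.87 ± 0.54 (SE, 3 and 2 arrays, limma adjusted p = 0.975), and the part of such markers in the Hoxb values was not tested.

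Between the WT arrays, the one at 9 to 12 months differed from the one at 3 months by -0.79 for Hoxb2, -0.19 for Hoxb3 and -0.04 for Hoxb4 (log2). Hoxb5 was 4.19-fold lower at 9 to 12 months, and Hoxb8 at least 22.9-fold, Hoxb6 at least 7.87-fold, Hoxb9 at least 4.91-fold and Hoxb7 at least 1.62-fold lower. Of 22049 features measured on either WT array, 7.84% were at least 2-fold lower at 9 to 12 months and 9.89% at least 2-fold higher. Under the labels of the value table this order of times is turned round. The KO minus WT difference on slide 2 minus that on slide 1 was 7.12 ± 1.33 for Hoxb8 and 4.11 ± 1.15 for Hoxb9 (SE, 6 KO and 1 WT arrays on slide 2, 1 of each on slide 1), with limma adjusted p of 0.368 and 0.534, against a median of -0.23 over 23307 features. Both genes were measured on the WT array of slide 1 alone, so this direction too was set by the filter, and with dim values raised the values were 5.19 and 2.97. For Hoxb2 it was -0.01 ± 1.02 and for Hoxb4 0.06 ± 0.72 (adjusted p = 0.9998 for both). Of 8 Hoxb genes tested limma called 0 and 0.0% of features in either direction, with 564 higher and 607 lower at an unadjusted p under 0.05. With quantile normalization in place of the 75th percentile, 191 features were called, among them 3 Hoxb genes (Hoxb7, Hoxb8 and Hoxb9), which rest on the same single array.

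Other genes of the Hox network were set beside the cluster, in the fit over all arrays, and limma called 0 genes of each list described here. The Hoxa list, the paralogous cluster on another chromosome, had 6 of 11 genes tested and a median difference of -0.55, against 0.04 over all features. Hoxa5, of lowest p in that list, was at -1.41 ± 0.85 (SE, 8 KO and 2 WT arrays, limma adjusted p = 0.967). Hoxa9, a leukaemia-associated factor of stem cells and early progenitors, was well above background on all arrays, at -1.11 to 0.10 in KO and -0.17 and 0.05 in WT, a difference of -0.41 ± 0.39 (SE, 8 KO and 2 WT arrays, limma adjusted p = 0.967). Of the Hoxc list 2 of 9 genes were tested, and of the Hoxd list 0 of 9 were well above background on enough arrays. The 7 TALE homeodomain cofactors tested had a median of 0.08, with 4 positive and 3 negative. Among them Meis1, which binds DNA together with Hox proteins, read 3.15 to 4.86 in KO and 5.62 (3 months) and 5.07 (9 to 12 months) in WT. Its groups did not overlap, as for 2.74% of the 22371 features tested. The difference was -1.21 ± 0.52 for Meis1 (limma adjusted p = 0.862) and 0.88 ± 0.53 for Pbx3 (limma adjusted p = 0.967), the 2 cofactors of lowest p. Among 15 Hox activators tested, with a median of 0.03, Rarb, a retinoic acid receptor, was well above background on 1 of 8 KO arrays (MDS replicate 1, at -1.14) and on both WT arrays, at 2.31 (3 months) and -2.24 (9 to 12 months). Its difference was -3.14 ± 1.09 (limma adjusted p = 0.685). Rarb passed the filter through the WT arrays alone, so this direction was favoured by the filter. Dot1l, the activator of next lowest p, was at 1.03 ± 0.51 (limma adjusted p = 0.950), and 9 activators were positive and 6 negative. The 11 PRC2 genes tested had a median of 0.12.

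The array with most Hoxb genes measured, WT at 3 months, also had the highest signal of stem cell markers. The summed signal of the 9 Hoxb genes, as a multiple of the 75th percentile, was 1.69 to 2.53 on the KO arrays, and 12.4 (3 months) and 3.39 (9 to 12 months) on the WT arrays. This sum includes unmeasured probes and is weighted to the brightest. The mean log2 level of the 8 Hoxb genes measured on any array, with dim values raised, overlapped between genotypes through MDS/MPN replicate 1 alone. It was -2.74 to -1.27 in KO, and 0.18 (3 months) and -1.51 (9 to 12 months) in WT. The -1.27 was that of MDS/MPN replicate 1, where 2 of the Hoxb genes were measured. The others stood there at the highest bound of any array. The next highest KO mean was -1.87. The summed signal of 18 long-term stem cell genes was 36.5 to 147 on the KO arrays, and 368 and 132 on the WT arrays, and 12 to 16 of them were well above background in KO and 17 and 15 in WT. None of the 18 was below background on all arrays. The 2 MDS arrays, at 134 and 147, lay close to the WT array of slide 2 in this sum, and by the mean log2 level of the list they were lower, at 1.11 and 1.04 against 1.22. In the fit over all arrays 17 stem cell genes were tested, with a median difference of -1.65, and 15 were negative. In the same fit lists of mature or committed cells had positive KO minus WT medians, of 2.43 for 7 erythroid genes, 2.09 for 5 mast cell and basophil genes, 1.93 for 9 neutrophil genes, 2.13 for 5 monocyte genes and 1.18 for 3 B cell genes, of which 0 were called by limma. Their summed signals overlapped between genotypes in each of these lists. They were 830 to 4451 in KO and 326 to 1101 in WT for the neutrophil list, and 52.0 to 224 and 17.0 to 57.7 for the monocyte list. The erythroid list was at 37.4 to 286 in KO and 64.1 to 115 in WT. The mast cell and basophil list was at 10.0 to 88.4 in KO and 3.58 to 11.9 in WT, and the B cell list at 25.0 to 56.8 and 19.4 to 25.6. Medians were 0.10 for 4 T cell genes, 0.36 for 2 NK cell genes and 0.02 for 2 stromal and endothelial genes. The 7 immediate early genes, which respond to handling of cells, had a median of -1.62, and their mean level was 6.15 on the 3-month KO array and between 0.34 and 5.16 on the other KO arrays, and 6.25 and 4.17 on the WT arrays of slides 1 and 2. In bulk samples, fewer cells of a type and less RNA per cell cannot be told apart, and the part of these markers in the Hoxb values was not tested.

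**Figure D4:**
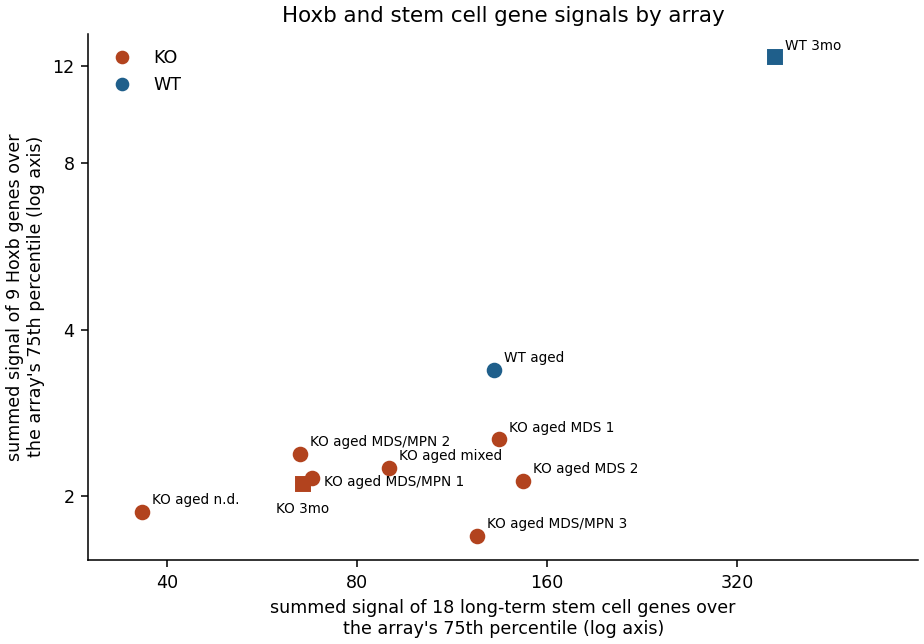
Summed signal of 18 long-term stem cell genes (horizontal, log axis) and of the 9 Hoxb genes (vertical, log axis) on each array, as multiples of the 75th percentile of the array, with squares for slide 1. The WT array at 3 months lies at 368 and 12.4, the WT array at 9 to 12 months at 132 and 3.39, and the KO arrays at 36.5 to 147 and 1.69 to 2.53. By mean log2 level of the Hoxb genes with dim values raised, not drawn here, the genotypes overlapped through MDS/MPN replicate 1 alone. That array had the highest bound for unmeasured values.

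Genes whose pattern over the 10 arrays was most like that of the Hoxb genes measured on at least 8 arrays (the mean of centred Hoxb2 and Hoxb4, which moves mostly with Hoxb2) were ranked among 10679 genes by Pearson r. Among the highest were Stap1 (r = 0.91), S1pr1 (0.87), Lonp2 (0.86), Itga6 (0.85) and Rnf138 (0.84). Without the 2 WT arrays, which lie apart, r was 0.56 for Stap1, 0.67 for S1pr1, 0.59 for Lonp2, 0.23 for Itga6 and 0.61 for Rnf138. The lowest were Nat8l (r = -0.94), Obi1 (-0.92), Ext1 (-0.92) and Dync1li1 (-0.91), and without the WT arrays r was -0.71, -0.91, -0.76 and -0.73 in that order. These are descriptions over 10 arrays that share 2 slides and the scale set by the 75th percentile.

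Of the genes next to the cluster, 0 were called by limma. Within 200 kb of the cluster the RefSeq table lists 19 other genes, of which 7 had a probe and 4 were tested. The ATP synthase subunit gene Atp5g1 differed by 0.74 ± 0.61, the autophagy receptor gene Calcoco2 by -0.38 ± 0.33, the tubulin ligase gene Ttll6 by 0.53 ± 0.57 and the T cell adaptor gene Skap1 by 1.37 ± 0.94 (SE, 8 KO and 2 WT arrays, limma adjusted p = 0.967 for each). Hoxb13, the outlying posterior gene of the same cluster and no member of the 9 genes, was not measured on any of the 10 arrays.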

How the data were processed

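Per the file headers, the deposited scanner files come from Feature Extraction 10.7.1.1 (version 9.1 in the submitters' processing notes) and give an intensity per spot, background-subtracted and detrended within the array, with 0.02 µg of Cy3-labelled RNA per array per the labels' protocols. The deposited value table holds a ratio, found to equal the same intensity over the 75th percentile of the array. The array annotation is on build mm9; positions and names are from RefSeq GRCm38.p6 by accession (27656 of 55681 probes named).

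From these, log2 intensity minus the 75th percentile of each array was computed. Spots of a probe were averaged, control spots and outlier flags were dropped, and the probe brightest on average over all arrays stood for its gene. A feature was tested when well above background on at least 50% of the arrays of 1 group. limma 3.58.1 (lmFit, eBayes) in R 4.3.3 was fitted over all features, with Benjamini-Hochberg adjusted p under 0.05 as the threshold; groups of 1 array were assumed to vary like the others. Where no array of the dimmer group was well above background, the fold is "at least": each of its values was set to the higher of itself and the lowest signal that passed this call on its array. In the disease fit only the 5 MDS and MDS/MPN arrays gave the spread; the mixed array was left out of it and of the fit at 9 to 12 months. The fits were tested on simulated data. Tables and figures used Python 3.11.15, pandas 2.3.3 and matplotlib 3.10.9. Precision is limited by the number of arrays.

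All 9 members are described. From each other list the text gives counts and named genes by rule: those past the threshold or, where none passed, the 2 of lowest p, from which those nearest the Hox genes were given here; Ezh2 and Hoxb13 are given besides. Of the genes most alike in pattern, 1 is not reported here. Members, lists and tests were chosen with earlier results of these data known. Alternatives were other normalization, background correction, probe rule, filters, variance model, time labels, slide term, value source and left-out arrays.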

Additional observations from a re-analysis of the deposited data

Results flagged for a closer look

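Hoxb4 on MDS/MPN replicate 2, at 0.853, stood far above the other KO arrays, of which the next highest was 0.361 and the lowest 0.127; it stood apart in the same way among the 6 KO arrays at 9 to 12 months other than the mixed one and among all 8 KO arrays. This array also had the highest 75th percentile (an intensity of 301.7) and the most probes well above background (47.5%), and the part of these in the value was not tested. Chance marks about 1 in 20 such groups, and 2 of 5 groups examined were marked, both by the same value.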

How the results depend on the processing

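Hoxb2 was negative under all 19 settings of the fit over all arrays (-2.42 to -1.12, lowest limma adjusted p = 0.249) and all 15 of the fit at 9 to 12 months (-2.96 to -1.10, lowest 0.0833), and Hoxb4 stayed between -0.03 and 0.11 in both. At 9 to 12 months, where 115 features were called, limma called 247 with quantile normalization, 182 with the mixed array added, 50 with no filter, 0 with normexp, 0 with features well above background on every array, 0 with dim values raised and 0 with trend and robust eBayes, and 0 to 215 with 1 array left out; it called 3 Hoxb genes under the time labels of the value table. Over all arrays, where 3 features were called, it called 0 with normexp, no filter, features well above background on every array, or trend and robust eBayes. With 1 array left out it called 0 to 177, namely 177 without the WT array at 3 months, 154 without the KO array at 3 months and 12 without the WT array at 9 to 12 months; Hoxb8 turned to 0.23 without the KO array at 3 months. For the difference between slides quantile normalization called 3 Hoxb genes, each measured on 1 array, and 191 features (a setting chosen after seeing the data). The cause was not tested in any of these. In the fit over all arrays, leaving out an array of slide 1 or the WT array of slide 2 leaves the genotype difference to the other slide alone. No paired analysis was possible because the labels give no replicate numbers that groups share. Values below the lowest signal well above background, -3.69 to -1.51 by array, are not resolved.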
